A study of Mus musculus with 4 samples.

Results

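The interleukin genes and the genes of interleukin receptor chains were compared between bone marrow of mice with MN1 leukemia and mature myeloid cells of healthy mice. They were taken as all genes whose platform symbol starts with Il and a number, on probe sets that name 1 gene. This gave 73 genes out of 18193 named on the array: 32 ligands, 33 signalling receptor chains, 3 antagonists or binding proteins, 3 decoy or soluble receptors and 2 genes that are neither ligand nor receptor. The series held 4 arrays, 2 of MN1 leukemic bone marrow and 2 of Gr1/Mac1 cells from bone marrow, all from C57BL/6J mice. For the leukemia, marrow was taken 4 days after fluorouracil at 150 mg/kg and kept for 48 hours in medium with human IL-6 (10 ng/mL), mouse IL-3 (6 ng/mL) and mouse stem cell factor (20 ng/mL). A retrovirus introduced MN1, a transcriptional coregulator, and cells sorted for GFP were kept in the same 3 cytokines and injected into recipients irradiated with 750 cGy, together with helper marrow from healthy mice. The labels do not say whether leukemic marrow was sorted again before RNA extraction, so host and helper cells may be in it. The Gr1/Mac1 cells, called mature here, were positive for Gr1 and CD11b, antigens of granulocytes and monocytes, and normal immature cells were not among the groups. Leukemia and immaturity therefore cannot be told apart.

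Interleukins are secreted proteins by which leukocytes and the cells around them control each other's growth, maturation and inflammatory state. They act through receptors built from chains that several cytokines share: the IL-1 family uses paired chains with an intracellular Toll-like domain, while most others use chains that bind JAK kinases and activate STAT factors. The IL-1 family is also held in check by a soluble antagonist, by binding proteins and by decoy receptors that bind ligand without signalling. Mature neutrophils and monocytes are known sources of IL-1 beta, of the IL-1 receptor antagonist and of the decoy receptor, and IL-3 and IL-6 support early progenitors in culture.

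Levels are MAS5 signals, which are linear intensities that the authors had brought to 1 trimmed mean per array. A log2 fold change is the leukemic less the mature group mean of log2(signal + 16), so that changes of dim genes come out too small. Genes were tested with limma after the dimmest 40% of probe sets, by mean over the 4 arrays, had been left out. The dimmest probe set kept had a mean of 47.7. A gene passed at a Benjamini-Hochberg adjusted p under 0.05 over all 12378 tested genes. Of the 73 genes, 41 were tested. The filter matters here, since 8 of the 41 entered through their leukemic signal alone and 2 through their mature signal alone, and such genes had to differ. They include 6 of the 8 that were higher (Il31ra, Il20ra, Il6, Il27ra, Il12rb2 and Il12a) and 1 of the 15 that were lower (Il10ra).

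Of the 41 tested genes 23 passed, 8 higher and 15 lower in leukemic marrow, that is 56.1% against 43.4% of all tested genes. Those higher made up 19.5% against 27.5% of all tested genes, and those lower 36.6% against 15.9%. The arrays of the groups did not overlap in 29 of the 41 tested members and in 9179 of all 12378 tested genes (74.2%). All 23 that passed were among the 29, as a pass itself makes likely. With no filter, where each of the 73 genes was tested, 9 were higher (12.3%, against 17.0% of all 18193 genes) and 15 lower (20.5%, against 10.1%), and their median log2 fold change was -0.074 against 0.15 over all genes. The split also depended on the scaling: with arrays scaled to the hybridization controls, 6 were higher and 23 lower, so that the share of passing members that were higher moved from 34.8% to 20.7%. No test of the group as a list was made, because its members were chosen with results of these data known.

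The arrays differed in more than cell type. The beta-actin control probe sets gave a ratio of 3′ over 5′ signal of 3.27 and 3.09 for leukemic marrow against 1.32 and 1.39 for mature cells, and its part in the values below was not tested. The gate antigen gene Itgam read 584 and 306 in leukemic marrow against 4288 and 4407 in mature cells. Neutrophil markers summed to 245153 to 438514 in the leukemic and 331233 to 423878 in the mature arrays, with 4 of 11 lower and none higher. Most of each sum was S100a8, S100a9, Ngp and Camp, which did not pass. The lower ones were Cxcr2 (log2 fold change -2.65), Csf3r (-2.55), Mmp9 (-2.52) and Mmp8 (-1.56). Monocyte and macrophage markers summed to 7347 to 10597 against 41696 to 59691, with 7 of 8 lower. Mature replicate 2 stood apart in Xist, at 114 against 7138 to 19640 in the other arrays, and in the Y-linked Eif2s3y, at 4409 against 2.51 to 3.01. The labels do not say how many mice gave each array.

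**Figure D1:**
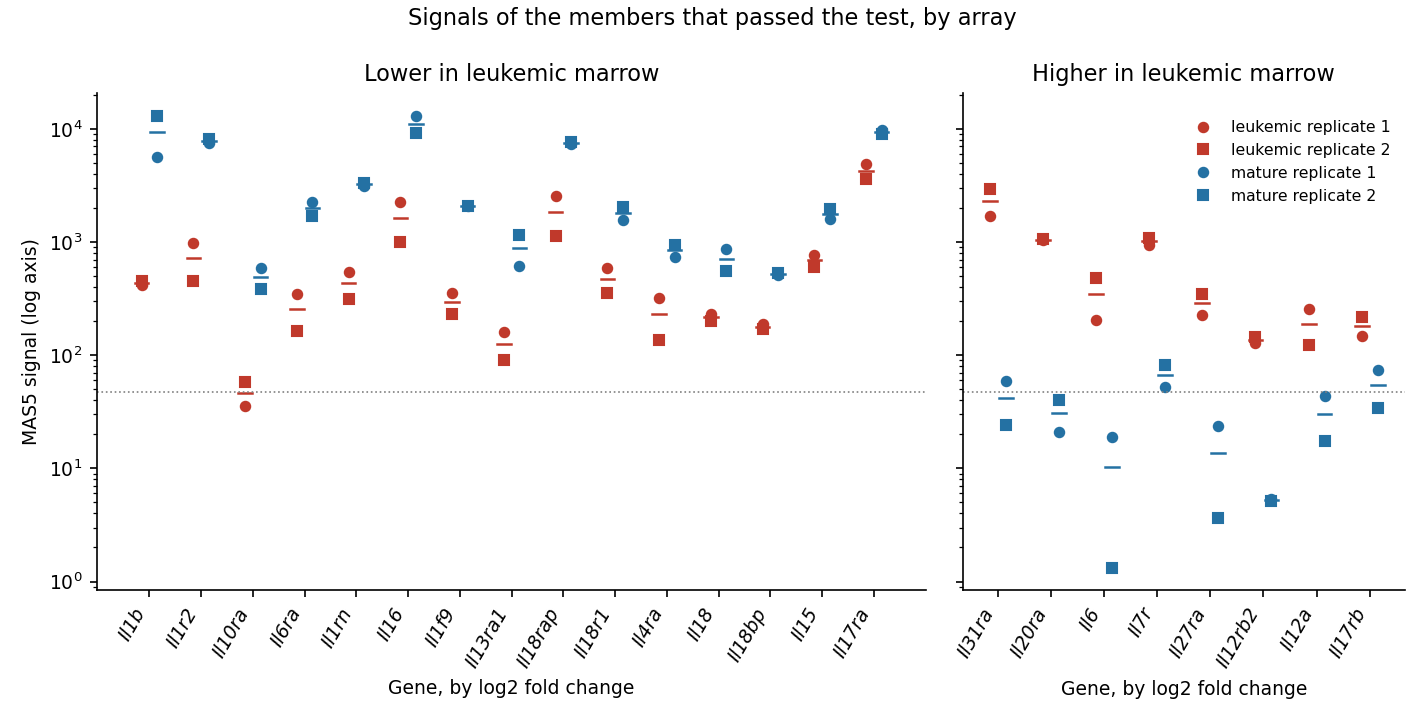
MAS5 signal on a log axis in each array for the 15 members that were lower and the 8 that were higher in leukemic marrow (red, leukemic; blue, mature; circle, replicate 1; square, replicate 2; short line, group mean; dotted line, lowest mean signal kept, 47.7). Most of the higher genes have mature signals near or under the dotted line, while most of the lower genes are well above it in both groups.

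To show what lies upstream, the 250 bases before the first listed transcription start are given for a ligand, the decoy and the antagonist of the IL-1 system, all of which fell (Il1b, Il1r2 and Il1rn), and for the 4 members with the largest rises (Il31ra, Il20ra, Il6 and Il7r). Il6ra, which fell somewhat more than Il1rn, is not shown, and Il10ra, which did so too, had no entry. The stretches are from RefSeq, build GRCm38.p6, 5′ to 3′ on the strand of the gene. In all, 19 of the 23 passing members had an entry. Capitals mark matches, on either strand, to the core letters of 7 motifs of factors known in myeloid and progenitor cells.
Il1b, chr2:129371140-129371389, strand minus: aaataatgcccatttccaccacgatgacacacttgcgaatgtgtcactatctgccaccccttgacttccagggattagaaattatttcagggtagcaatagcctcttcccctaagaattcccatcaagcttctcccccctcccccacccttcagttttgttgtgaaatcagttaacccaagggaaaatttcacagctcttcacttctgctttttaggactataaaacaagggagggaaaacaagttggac
Il1r2, chr1:40085843-40086092, strand plus: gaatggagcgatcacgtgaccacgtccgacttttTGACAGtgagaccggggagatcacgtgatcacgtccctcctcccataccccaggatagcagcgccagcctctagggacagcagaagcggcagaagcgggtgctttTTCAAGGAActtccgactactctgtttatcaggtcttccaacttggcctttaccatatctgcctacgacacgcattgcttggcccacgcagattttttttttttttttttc
Il1rn, chr2:24336610-24336859, strand plus: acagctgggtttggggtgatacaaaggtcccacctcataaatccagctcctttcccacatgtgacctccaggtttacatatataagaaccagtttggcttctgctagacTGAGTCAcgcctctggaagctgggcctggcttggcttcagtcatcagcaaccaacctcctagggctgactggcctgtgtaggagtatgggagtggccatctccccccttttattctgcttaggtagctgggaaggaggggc
Il31ra, chr13:112580663-112580912, strand minus: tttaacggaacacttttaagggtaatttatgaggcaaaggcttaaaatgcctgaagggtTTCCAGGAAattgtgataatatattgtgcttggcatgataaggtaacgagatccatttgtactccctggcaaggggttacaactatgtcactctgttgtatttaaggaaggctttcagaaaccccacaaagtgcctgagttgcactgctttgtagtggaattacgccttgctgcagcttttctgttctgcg
Il20ra, chr10:19712337-19712586, strand plus: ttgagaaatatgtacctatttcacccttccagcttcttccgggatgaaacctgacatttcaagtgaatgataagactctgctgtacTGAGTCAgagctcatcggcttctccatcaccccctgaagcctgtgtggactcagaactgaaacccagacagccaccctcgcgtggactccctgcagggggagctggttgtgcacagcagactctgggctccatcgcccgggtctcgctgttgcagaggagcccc
Il7r, chr15:9529877-9530126, strand minus: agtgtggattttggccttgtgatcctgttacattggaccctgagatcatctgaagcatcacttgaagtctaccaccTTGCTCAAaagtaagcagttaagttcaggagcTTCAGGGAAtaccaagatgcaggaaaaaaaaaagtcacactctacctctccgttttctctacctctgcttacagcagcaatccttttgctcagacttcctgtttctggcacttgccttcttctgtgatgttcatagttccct
Il6, chr5:30012864-30013113, strand plus: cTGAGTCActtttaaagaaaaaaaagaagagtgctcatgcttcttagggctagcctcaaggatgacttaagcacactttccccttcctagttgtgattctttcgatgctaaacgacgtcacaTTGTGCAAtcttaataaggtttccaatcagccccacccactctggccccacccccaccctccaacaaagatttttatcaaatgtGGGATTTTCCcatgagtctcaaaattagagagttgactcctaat
The motifs were NF-kappaB (GGG, any 3 bases, TTCC), AP-1 (TGANTCA), C/EBP (TTGCNNAA), STAT (TTCNNNGAA), PU.1 (GAGGAAGT), MEIS (TGACAG) and HOX-PBX (TGATTNAT), where N is any base. In the Il6 stretch the NF-kappaB letters lie 44 bases, the C/EBP letters 128 bases and the AP-1 letters 249 bases before the start. The Il31ra stretch holds the STAT letters, that of Il7r the STAT and C/EBP letters, those of Il20ra and Il1rn the AP-1 letters, and that of Il1r2 the MEIS and STAT letters.

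Over the 19 stretches, the MEIS letters were in 4 of 12 from genes that fell and 0 of 7 from genes that rose, and in 16% of 27025 promoters. The STAT letters were in 2 of 12 and 3 of 7 (7.18% of all promoters), the AP-1 letters in 2 of 12 and 3 of 7 (6.87%), and the C/EBP letters in 1 of 12 and 2 of 7 (9.55%). The PU.1 letters were found in 1 of 12 and 0 of 7 (2.44%), the NF-kappaB letters in 0 of 12 and 1 of 7 (4.6%) and the HOX-PBX letters in none (2.99%). A match is a string of letters and not a shown binding site, and the numbers of genes are too small to set against the shares.

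Among the ligands of the IL-1 family, Il1b, which encodes the inflammatory cytokine IL-1 beta, was far lower in leukemic marrow. Il1b read 416 and 450 in leukemic marrow against 5624 and 12976 in mature cells. Both leukemic values lay far under both mature values, and the mature arrays differed from each other by more than the leukemic ones. The log2 fold change was -4.25 (SE 0.39, limma adjusted p = 5.6e-04), or 21.5-fold on the mean signals. Il1f9, which encodes IL-36 gamma, read 357 and 232 against 2080 and 2075, with a log2 fold change of -2.78 (SE 0.29, limma adjusted p = 7.7e-04). Il18, whose product is released by inflammasome cleavage as IL-1 beta is, read 231 and 202 against 869 and 555, with -1.62 (SE 0.32, limma adjusted p = 0.0072). For both genes the groups were apart by much more than the replicates, and the Il18 call was lost without leukemic replicate 2 (adjusted p = 0.064).

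The other ligands of this family did not pass or were too dim to test. Il1f10 (IL-38) read 178 and 94.4 against 28.4 and 220, and Il1f6 (IL-36 alpha) 61.8 and 92.5 against 51.4 and 127, with overlapping groups in both. Il1a, Il1f8 and Il33 were not tested, and their highest signals in any array were 14.2, 59.9 and 32.5. The antisense transcript Il1bos, from the Il1b locus, read 69.3 and 78.5 against 51.4 and 18.5 and did not pass (limma adjusted p = 0.25), while Il1b itself fell.

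Genes for the IL-1 receptor antagonist, the IL-1 decoy receptor and the IL-18 binding protein had lower signals too. Sigirr, which also restrains this family, rose and is given below. Il1rn, which encodes the IL-1 receptor antagonist, read 548 and 317 in leukemic marrow against 3153 and 3310 in mature cells, a log2 fold change of -2.90 (SE 0.30, limma adjusted p = 8.1e-04). Il1r2, the decoy receptor that binds IL-1 without signalling, read 988 and 456 against 7499 and 8198, with -3.51 (SE 0.36, limma adjusted p = 8.0e-04). In both genes leukemic replicate 1 was above leukemic replicate 2, and both were far below the mature arrays. Il18bp, whose secreted product binds IL-18, read 187 and 171 against 508 and 532, with -1.46 (SE 0.29, limma adjusted p = 0.0070), a call lost without leukemic replicate 2 (adjusted p = 0.072). Il1f5, the antagonist of the IL-36 receptor, read 86.3 and 56.9 against 85.9 and 132 and did not pass (limma adjusted p = 0.42).

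Of the signalling chains of the IL-1 family, those for IL-18 fell. Il18r1, which binds IL-18, read 592 and 355 against 1573 and 2050, with a log2 fold change of -1.93 (SE 0.32, limma adjusted p = 0.0034). Its accessory chain Il18rap read 2555 and 1134 against 7280 and 7653, with -2.12 (SE 0.38, limma adjusted p = 0.0046). For both chains the groups did not overlap, and again leukemic replicate 1 was the higher of its pair. Il1rap, the accessory chain shared by the IL-1, IL-33 and IL-36 receptors, did not pass, at 625 and 540 against 506 and 1268 (limma adjusted p = 0.43), though without mature replicate 1 it did (-1.10, adjusted p = 0.019) and without mature replicate 2 its sign turned (0.19). Neither did Il1rl2, the IL-36 receptor, at 132 and 34.1 against 197 and 162 (limma adjusted p = 0.14). Il1r1, the signalling receptor for IL-1, was not tested: its signals of 17.8, 13.9, 43.5 and 12.7 were all under the lowest kept mean signal.

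Of the IL-1 family genes among the members, 8 of 13 tested fell (61.5%, against 15.9% of all tested genes) and none rose (against 27.5%). With no filter 8 of 19 fell (42.1%, against 10.1% of all genes) and none rose (against 17.0%). The median log2 fold change of the 19 without a filter was -0.51, against 0.15 over all genes. Sigirr, which dampens signalling of this family, has no Il symbol and is not among the 19. It rose (1.51), as given below. Monocyte markers, 4 of 11 neutrophil markers and the gate antigen were lower in the same arrays as given above. The mature cells had been selected by 2 such antigens, and the part of any of these in the IL-1 family values was not tested. In bulk RNA, fewer cells of a type and less RNA per cell cannot be told apart.

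**Figure D2:**
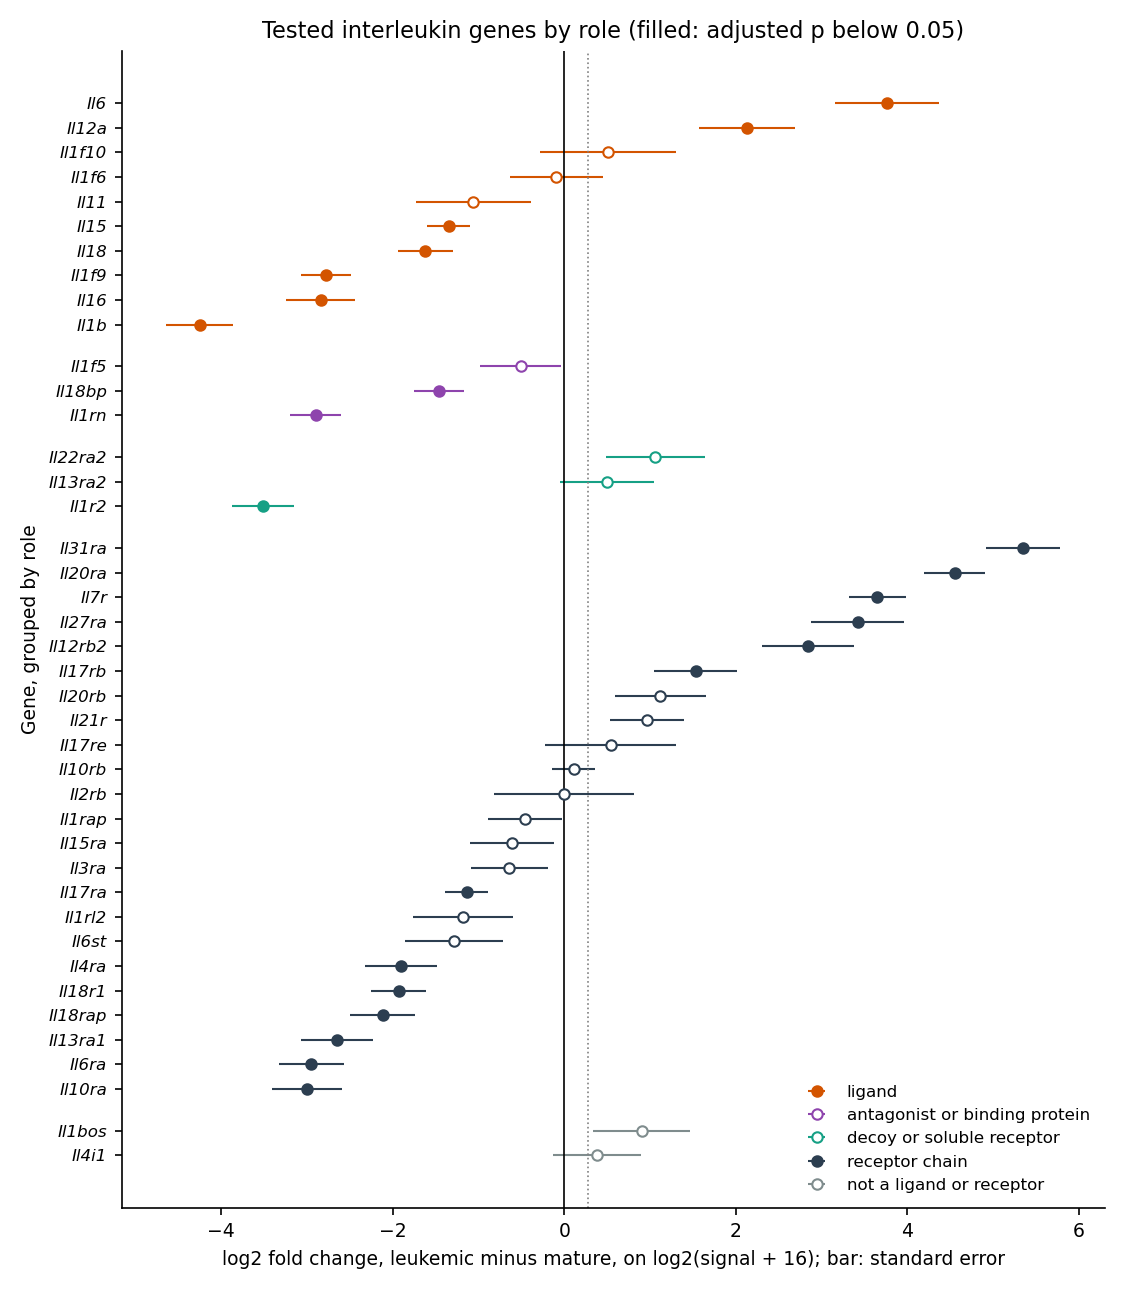
log2 fold change (leukemic minus mature) with its standard error for the 41 tested genes, grouped and coloured by role (filled points, adjusted p below 0.05; solid line, no change; dotted line, median of all tested genes, 0.28). Receptor chains lie on both sides of 0, from 5.35 for Il31ra to -3.00 for Il10ra, while the antagonists lie below 0.

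Ligands outside the IL-1 family moved both ways. Il6, the cytokine that acts through Il6ra and Il6st and that had also been in the culture medium as human protein, read 206 and 486 in leukemic marrow against 19.1 and 1.33 in mature cells. Both leukemic values were higher than both mature values, and the replicates of each group differed widely. Its log2 fold change was 3.76 (SE 0.61, limma adjusted p = 0.0033), and it was 2.39 with a pseudocount of 64 and 5.53 with a pseudocount of 1. Il12a, the p35 subunit of IL-12 and IL-35, read 256 and 124 against 43.2 and 17.4, with 2.13 (SE 0.56, limma adjusted p = 0.020). The Il12a call was lost without leukemic replicate 1 or mature replicate 2 and when the hybridization controls set the scale (adjusted p up to 0.16). Its partner subunit for IL-12, Il12b, was not tested, at 39.1 and 42.8 against 28.0 and 65.7, and Ebi3, its partner subunit for IL-35, is given below.

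Il16, a chemoattractant cytokine cut from a larger precursor, read 2265 and 1004 against 12943 and 9233, with a log2 fold change of -2.84 (SE 0.40, limma adjusted p = 0.0021). Il15, a growth factor for natural killer and memory T cells that myeloid cells present to them, read 775 and 607 against 1614 and 1947, with -1.35 (SE 0.25, limma adjusted p = 0.0057). The groups did not overlap in either gene, and the Il15 call was lost without leukemic replicate 2 (adjusted p = 0.069). Il11, a relative of IL-6, read 25.3 and 28.4 against 138 and 35.3 and did not pass (-1.06, limma adjusted p = 0.25), but it did without mature replicate 2 (-1.85, adjusted p = 0.046).

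A total of 22 ligands were too dim to be tested, Il1a, Il1f8, Il33 and Il12b above among them, with signals from 1.32 to 119. The Il7 signal of 119 and 46.3 against 4.70 and 13.3 was the highest among them, and with no filter Il7 (1.90, limma adjusted p = 0.048) and Il10 (1.51, adjusted p = 0.041), which read 51.7 and 31.2 against 2.59 and 5.20, passed as higher. IL-7 is the growth factor of early lymphocytes and IL-10 an anti-inflammatory cytokine. Il9, a mast cell growth factor, read 15.5 and 11.7 against 42.9 and 67.8, and Il17a 58.1 and 43.1 against 36.4 and 45.2. Il3, which had been in the medium, read between 2.23 and 6.54 in all 4 arrays.

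Of 23 tested receptor chains 6 rose (26.1%, near the 27.5% of all tested genes) and 7 fell (30.4%, against 15.9%). With no filter 5 of 33 rose (15.2%, against 17.0%) and 7 fell (21.2%, against 10.1%). The largest rise was that of Il31ra, which encodes the IL-31 receptor chain, a relative of the IL-6 signal transducer. Il31ra read 1712 and 2941 in leukemic marrow against 59.6 and 24.4 in mature cells, a log2 fold change of 5.35 (SE 0.43, limma adjusted p = 3.7e-04). Its other kept probe set gave 5.79 (SE 0.38), with signals of 1178 and 1500 against 3.82 and 13.9. The partner chain Osmr was not tested, at 70.4 and 9.15 against 6.04 and 24.6, and Il31 itself read at most 3.52.

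Il20ra, a chain of the receptors for IL-19, IL-20 and IL-24, read 1044 and 1063 against 21.0 and 40.5, with a log2 fold change of 4.55 (SE 0.36, limma adjusted p = 3.7e-04). The leukemic replicates nearly coincided. Its partner Il20rb did not pass, at 66.5 and 81.0 against 28.8 and 21.6 (limma adjusted p = 0.13), although the groups did not overlap. The ligands Il20 and Il24 read at most 31.0 in any array.

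Il7r, the IL-7 receptor alpha chain of early lymphoid cells, read 950 and 1080 against 52.2 and 82.2. Both leukemic arrays were far above both mature ones, with a log2 fold change of 3.65 (SE 0.33, limma adjusted p = 5.5e-04). Its second kept probe set gave 2.73 (SE 0.49), at 147 and 149 against 8.49 and 8.89. Lymphoid markers were read beside it. T and NK cell markers summed to 375 to 454 in the leukemic and 605 to 617 in the mature arrays, with 1 of 3 tested lower and none higher, and Cd3e, Cd3g, Cd4 and Cd2 were under 47.7 in every array. B cell markers summed to 681 to 960 against 745 to 911, with none of 6 tested higher. The largest differences among the 6 went both ways and did not pass. Vpreb1 read 117 and 295 against 18.4 and 78 (1.84, limma adjusted p = 0.06), and Ms4a1 46.6 and 5.88 against 130 and 98.4 (-1.8, adjusted p = 0.061). The part of lymphoid cells in the Il7r rise was not tested. Crlf2, which pairs with Il7r in the receptor for TSLP, fell, from 10102 and 11857 to 3289 and 2554 (-1.91, SE 0.25, limma adjusted p = 0.0016).

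Il27ra, the specific chain for IL-27, read 226 and 350 against 23.6 and 3.65, with a log2 fold change of 3.42 (SE 0.54, limma adjusted p = 0.0030). Il12rb2, the signalling chain of the IL-12 receptor, read 127 and 145 against 5.36 and 5.12, with 2.84 (SE 0.54, limma adjusted p = 0.0059), a call lost without leukemic replicate 2 (adjusted p = 0.055). Both were dim in the mature arrays, and neither group overlapped the other. The shared chain Il12rb1 was not tested, at 81.2 and 28.0 against 28.8 and 49.6. Il17rb, the chain for IL-25, read 147 and 216 against 74.1 and 34.5, with 1.53 (SE 0.48, limma adjusted p = 0.040). Of all the calls this was the least stable, being lost in 7 of 14 alternatives (adjusted p up to 0.51).

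In the arrays where these chains were higher, markers of immature and other lineages had higher summed signals. Their part in the rises was not tested. Mast cell and basophil markers summed to 53382 to 67580 in the leukemic and 10788 to 13606 in the mature arrays, with 5 of 6 tested higher, and Mcpt4 was under 47.7 in every array. Most of the mature sum was Hdc, at 7991 and 8320 against 10202 and 13249, which did not pass; the most abundant others were Ms4a2, at 25534 and 34597 against 143 and 179, and Cpa3, at 15962 and 19543 against 72.8 and 8.57. Erythroid markers summed to 39164 to 52033 against 2697 to 6524, with 4 of 5 higher, and most of the mature sum was Alas2 (6164 and 2176), which did not pass. Stem and progenitor markers summed to 24029 to 24072 against 8013 to 11642, with 5 of 7 higher and 1 lower, and the lower one, Spi1, gave most of the mature sum (8097 and 5903). Megakaryocyte and platelet markers summed to 3048 to 3445 against 912 to 927, with 2 of 6 higher, Itga2b and Vwf. Most of the leukemic sum was Itga2b, at 2092 and 1794 against 207 and 233. Pf4, Gp9 and Gp1bb did not pass, nor did Ppbp, which was lower, at 42.7 and 18.2 against 64.1 and 71.3. Of all tested genes 27.5% were higher.

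Of the chains that fell, Il10ra, the ligand-binding chain for IL-10, read 35.5 and 57.8 in leukemic marrow against 595 and 383 in mature cells. The groups were wide apart, with a log2 fold change of -3.00 (SE 0.41, limma adjusted p = 0.0019). Its partner Il10rb, shared with other receptors of the family, read 4064 and 4491 against 3368 and 4678 and did not pass (0.11, limma adjusted p = 0.77), a difference whose sign turned with every array at the same median (-0.21) and under hybridization-control scaling (-1.22, adjusted p = 0.0061). Il6ra, the IL-6 binding chain, read 349 and 164 against 2252 and 1706, with -2.95 (SE 0.38, limma adjusted p = 0.0016), so that it fell while Il6 rose. A dimmer probe set of Il6ra read 107 and 172 against 76.5 and 143 and gave 0.33 (limma adjusted p = 0.62 over all kept probe sets), and the mean of its probe sets -1.31. The signal transducer Il6st, which IL-6, IL-11 and IL-27 share, read 228 and 177 against 974 and 267 and did not pass (-1.29, limma adjusted p = 0.11). Mature replicate 1 alone was high, and Il6st passed without mature replicate 2 (-2.19, adjusted p = 0.0070), with a replicate block (adjusted p = 0.019) and under hybridization-control scaling (-2.54, adjusted p = 0.0095).

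The chains of the IL-4 and IL-13 receptor fell together. Il13ra1 read 162 and 90.2 against 620 and 1148, with a log2 fold change of -2.65 (SE 0.42, limma adjusted p = 0.0030). Il4ra read 322 and 137 against 742 and 943, with -1.91 (SE 0.42, limma adjusted p = 0.010). In both genes the higher leukemic array was under the lower mature array, and the Il4ra call was lost without leukemic replicate 2 or mature replicate 2 (adjusted p up to 0.069). The decoy Il13ra2 did not pass, at 55.7 and 95.8 against 32.5 and 66.3 (limma adjusted p = 0.50), and the ligands Il4 and Il13 read at most 56.4.

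Il17ra, the common chain of the IL-17 receptors, read 4888 and 3633 against 9765 and 8926, with a log2 fold change of -1.14 (SE 0.25, limma adjusted p = 0.0099), lost without leukemic replicate 2 (adjusted p = 0.091). Il17re, its partner for IL-17C, read 202 and 247 against 53.0 and 376 and did not pass (limma adjusted p = 0.60). The spread of Il17re between the mature arrays was wider than the difference between groups, and without mature replicate 2 it passed as higher (1.80, adjusted p = 0.019).

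The chains of the IL-3 receptor were read beside the IL-3 used in culture. Il3ra, the IL-3 binding chain, read 207 and 89.5 against 250 and 201 and did not pass (-0.64, SE 0.45, limma adjusted p = 0.29), and the groups overlapped. Under hybridization-control scaling Il3ra passed (-1.85, adjusted p = 0.011). Its beta chains differ in their ligands: Csf2rb, shared by the receptors for IL-3, IL-5 and GM-CSF, fell from 10132 and 14245 to 4376 and 2918 (-1.74, SE 0.30, limma adjusted p = 0.0040), and Csf2rb2, the mouse chain specific to IL-3, read 1384 and 1215 against 1506 and 2732 (-0.64, SE 0.32, limma adjusted p = 0.15). Differences between these chains were not tested. Il5ra was not tested, with signals from 6.19 to 47.6, and eosinophil markers had no call in 4 tested.

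Other tested genes that did not pass were the receptor chains Il21r (means of 127 against 57.4), Il15ra (158 against 274) and Il2rb (54.3 against 48.7), the soluble IL-22 receptor Il22ra2 (333 against 130) and the enzyme gene Il4i1 (104 against 81.3). The Il22ra2 mean rests on leukemic replicate 1, since it read 516 and 151 against 97.5 and 163, and its log2 fold change went from 1.06 to 0.23 without that array and to 1.90 without leukemic replicate 2. Il15ra passed without mature replicate 2 (-1.27, limma adjusted p = 0.039). Among the 18 that did not pass, the groups overlapped in 12, and the smallest adjusted p was 0.11. In all, 10 receptor chains were not tested, Il1r1, Il12rb1 and Il5ra above among them, with signals from 0.485 to 81.2. Of all 32 untested genes, 22 were under 47.7 in every array and 11 had groups that did not overlap, as had 36.6% of all 5815 untested genes.

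Where a gene had several kept probe sets, they mostly moved one way. The passing members had 15 other kept probe sets. Of these, 13 had the direction of the brightest one, 10 also passed when each probe set was tested, and none passed in the opposite direction. Of all kept probe sets 34.9% passed (21.2% higher and 13.6% lower). That share is not a like measure, since it takes in genes that had not passed, and the share over other probe sets of all passing genes was not counted. The exceptions in direction were the Il6ra probe set above and 1 of 4 others of Il13ra1, which read 92.1 and 23.5 against 5.74 and 79.2 and gave 0.52 (SE 0.86, limma adjusted p = 0.68). The dimmest kept probe set of Il16 kept its direction but not its size, at -0.38 (SE 0.41).

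**Figure D3:**
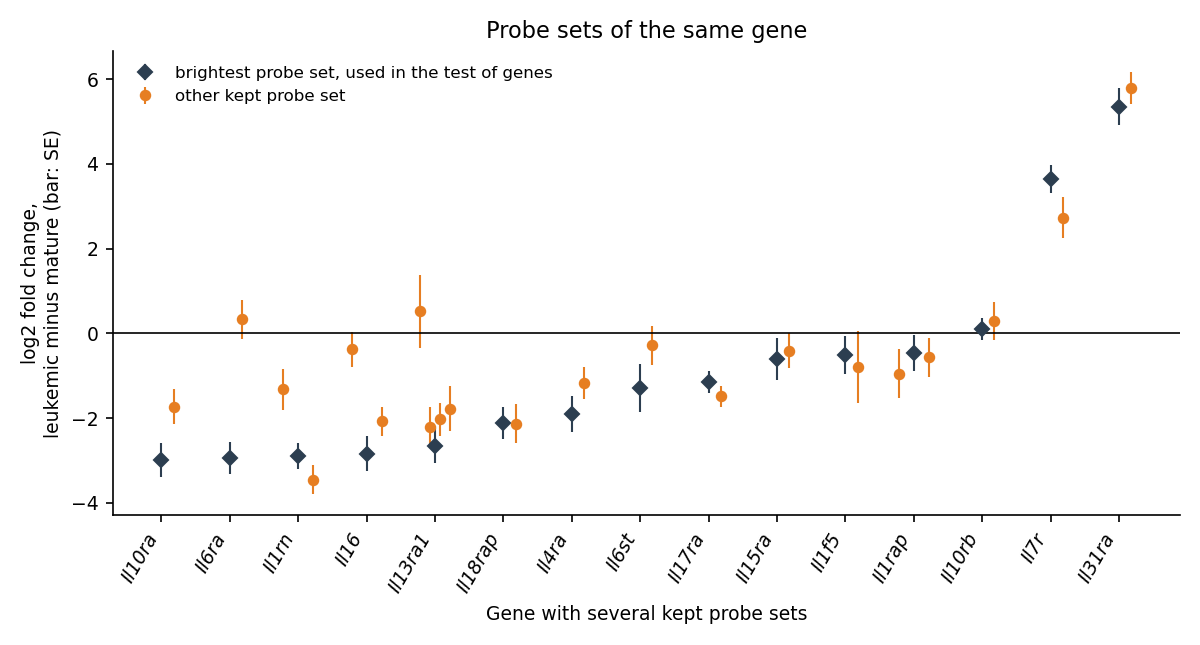
log2 fold change (leukemic minus mature) with its standard error for each kept probe set of the 15 genes that have several, from a fit over all kept probe sets (diamond, the probe set with the highest mean signal; circle, the others). The probe sets of Il31ra and Il7r lie above 0 together, and those of Il6ra lie on both sides of 0.

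Genes that act with the interleukin receptors were counted from 3 lists. Among cytokines and chains outside the Il symbols, 6 of 11 tested fell (54.5%, against 15.9% of all tested genes) and none rose (against 27.5%). The median log2 fold change was -1.84, against 0.28 over all tested genes. Osm, an IL-6 relative made by activated myeloid cells, fell from 7295 and 7415 to 700 and 652 (-3.41, SE 0.22, limma adjusted p = 1.9e-04). Csf1r, the receptor for CSF1 and IL-34, fell from 23525 and 14926 to 2431 and 1955 (-3.09, SE 0.29, adjusted p = 6.2e-04), and Csf2ra fell by 2.68 (SE 0.40, adjusted p = 0.0025). Ebi3, the subunit shared by IL-27 and IL-35, fell from 7592 and 5259 to 1725 and 877 (-2.35, SE 0.37, adjusted p = 0.0029).

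Of the IL-1 signalling and maturation genes, 5 of 14 fell (35.7%, against 15.9% of all tested genes) and 1 rose (7.1%, against 27.5%). Irak3, an inhibitor of IL-1 and Toll-like receptor signalling, fell from 3958 and 3779 to 634 and 472 (-2.78, SE 0.25, limma adjusted p = 5.3e-04), and the adaptor Myd88 from 6397 and 6536 to 1988 and 1541 (-1.88, SE 0.24, adjusted p = 0.0015). Casp1, the protease that cleaves the precursors of IL-1 beta and IL-18, fell with -1.72 (SE 0.41, adjusted p = 0.015), a call lost without leukemic replicate 2 (0.086) or mature replicate 2 (0.071). Sigirr, which dampens IL-1 family signalling, rose from 224 and 209 to 549 and 758 (1.51, SE 0.30, adjusted p = 0.0071). The Sigirr call was lost without leukemic replicate 2 (0.11) and under hybridization-control scaling (0.52).

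Among JAK, STAT and SOCS genes, 5 of 19 rose (26.3%, near the 27.5% of all tested genes) and 6 fell (31.6%, against 15.9%). Their median log2 fold change was -0.068, against 0.28 over all tested genes. Socs2, a feedback inhibitor induced by STAT5, read 2655 and 1997 in leukemic marrow against 10.1 and 27.1 in mature cells (6.11, SE 0.37, limma adjusted p = 1.7e-04), but another of its probe sets gave 0.47 (adjusted p = 0.48). Socs5 rose by 3.46 (SE 0.46, adjusted p = 0.0017). Socs7 rose by 1.3 (SE 0.23, adjusted p = 0.0042), a call lost without leukemic replicate 2 (adjusted p = 0.051), and its sign turned with arrays scaled to the hybridization controls (-0.0069). Stat4, which IL-12 activates, fell from 2330 and 1701 to 302 and 207 (-2.91, SE 0.30, adjusted p = 8.0e-04). Socs3, the inhibitor of IL-6 signalling, fell with -2.64 (SE 0.70, adjusted p = 0.021), and its mature arrays, at 577 and 2722, were far apart. The Socs3 call was lost without leukemic replicate 2 (0.10) or mature replicate 2 (0.056). The phosphatase gene Ptpn6 fell by 2.26 (SE 0.32, adjusted p = 0.0021).

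The leukemic replicates differed from each other in a way that ran with these directions. Leukemic replicate 1 was above leukemic replicate 2 in 13 of the 15 members that fell, with a median log2 difference of 0.71, and in 1 of the 8 that rose, with a median of -0.35. The median over all tested genes was -0.0056. How often replicate 1 was the higher among all genes that fell or rose was not counted. Neutrophil markers summed to 438514 in leukemic replicate 1 and 245153 in leukemic replicate 2, and monocyte markers to 10597 and 7347. The part of these cells in the pattern was not tested.

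**Figure D4:**
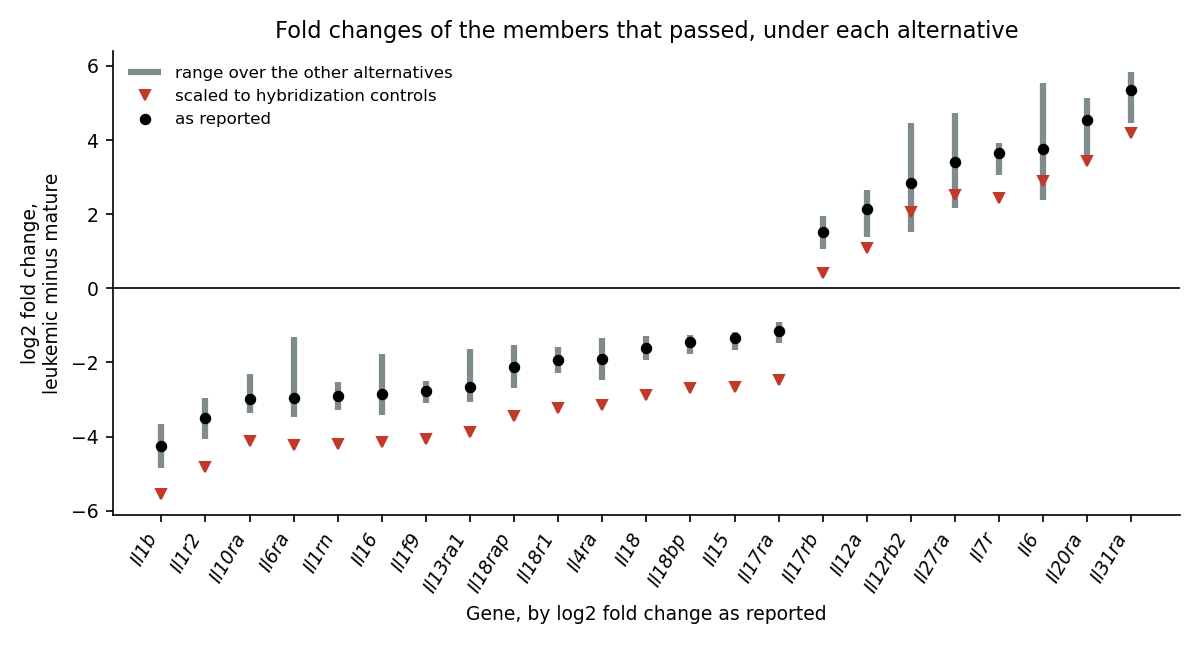
log2 fold change (leukemic minus mature) of the 23 members that passed, as reported (black), with arrays scaled to the hybridization controls (red triangle) and as a range over the other alternatives (grey bar). No gene crosses 0, and the scaling to these controls lowers every value.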

How the data were processed

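The authors deposited 1 intensity per probe set and array, the linear MAS5 signal. The submitters' processing notes name GCOS 1.3.0. Settings, scale target and detection calls: not given in the sources used here. The trimmed mean signal (2% from each end) was 500 on each array, and the median signal was 59.1 to 85.3. Of 45101 probe sets, 64 controls were left out, and 34945 named 1 gene in the platform annotation, which can be old. The gene IDs of all 73 members were in the RefSeq table of GRCm38.p6, and 0 symbols differed.

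Arrays were not rescaled, 16 was added to each signal before log2, a gene was represented by whichever of its probe sets was brightest on average over the 4 arrays, and limma 3.58.1 (R 4.3.3) tested the groups (variance trend, two-sided, Benjamini-Hochberg). Residual degrees of freedom were 2 before and 6.90 after moderation, and the median SE was 0.33. The number of arrays limits the precision: an exact permutation test of 2 against 2 can give no p below 0.33. The labels do not say that replicates came from separate mice, although the design text calls them biological, so p-values measure the spread between these arrays. The labels' numbers do not pair arrays (correlation of deviations of same-numbered arrays -0.03).

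Members, roles and lists were chosen with earlier results of these data known. Named with values were all passing members, and tested members that are their partner chains, ligands, antagonists or decoys. So were untested members with a group mean above 47.7, Il3 and Il6, and up to 3 passing genes per direction from each list. Untested partner chains and ligands were named only in part. Crlf2, Ebi3, Csf2rb, Csf2rb2, Osmr, Il10 and single marker genes were named after their values were seen. The fit was tested on simulated data. Alternatives were pseudocounts of 1 and 64, no filter, the lowest 60% left out, 3 other scalings, the mean of probe sets, no probe sets with suffix _x_at, _s_at or _a_at, 2 variance models, a replicate block, and each array left out. Python 3.11.15 and matplotlib 3.10.9 made the figures.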

Additional observations from a re-analysis of the deposited data

How the results depend on the processing

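Of the 23 members that passed, 15 passed in each of the 16 alternatives in which they were tested, and none changed sign. The count of passing members lay between 18 and 29 over the alternatives that kept all arrays, and between 16 (without leukemic replicate 2) and 24 when 1 array was left out. Counting only members with both group means above 47.7, a choice made after seeing the data, left 16, of which 2 were higher and 14 lower. Over all genes the count with 1 array left out lay between 2575 and 5441 (5375 with all arrays), and for the related genes of the 3 lists between 15 and 26 (23 with all arrays). Scaling to the hybridization controls divided the arrays of each group by 1 common factor. The geometric mean of these controls was 11920 and 8950 in the leukemic against 4044 and 4167 in the mature arrays, so the scaling had to lower every log2 fold change. It moved the median over all genes from 0.28 to -0.95, so the direction of small changes depends on it. Of all genes that passed, 63.3% were higher, against 49.7% with every array at the same median and 15.4% with that scaling. With a replicate block 24 members passed, 23 of them shared, and Il6st was added. The block gave 14.6 degrees of freedom after moderation against 6.90 and turned no other member's call; the numbers mark no known pairing. Of the 18 members that had not passed, 10 gained a call without a change of sign in at least 1 alternative: Il11, Il15ra, Il1f5, Il1rap, Il1rl2, Il3ra and Il6st under hybridization-control scaling, Il20rb and Il21r with no variance trend, and Il17re without mature replicate 2. Il10rb gained one with its sign turned.

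Sign changes of members that had not passed, of the related gene Socs7 and of single probe sets were as follows, and the cause was not tested. When the hybridization controls set the scale, the log2 fold change was -1.22 for Il10rb, -0.53 for Il13ra2, -0.66 for Il17re, -0.089 for Il1bos, -0.60 for Il1f10, -0.16 for Il21r, -0.15 for Il22ra2 and -0.74 for Il4i1, and -0.0069 for Socs7, which had passed. Il10rb gave -0.21 at equal array medians, and Il2rb gave 0.031 with a pseudocount of 64. With 1 array left out the log2 fold change ranged from -0.13 to 0.34 for Il10rb, -1.27 to 0.053 for Il15ra, -0.71 to 1.80 for Il17re, -0.69 to 1.72 for Il1f10, -0.63 to 0.45 for Il1f6, -1.10 to 0.19 for Il1rap, -0.94 to 0.93 for Il2rb and -0.14 to 0.90 for Il4i1. Il13ra1 and Il6ra, which had passed as lower, had the opposite sign on single dimmer probe sets, at 0.52 and 0.33.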

Other observations

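Probe sets that name an interleukin gene together with another gene were left out of the members. The one shared by Ntan1 and Il2 read 2839 and 2786 in leukemic marrow against 3271 and 2437 in mature cells (log2 fold change -0.0056, limma adjusted p = 0.99 over all kept probe sets), while the probe set that names Il2 alone read at most 7.68. The one shared by Il4i1b and Il4i1 read 36.1 and 20.4 against 63.5 and 4.03. Markers of dendritic cells moved both ways, with Ccr9 at 903 and 570 against 56.9 and 38.6 (3.54, limma adjusted p = 9.0e-04) and Cd209a at 20.6 and 9.72 against 265 and 187 (-2.96, adjusted p = 0.0035). Plasma cell markers summed to 190 to 221 in the leukemic and 1528 to 6740 in the mature arrays.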
